A study of Mus musculus with 40 samples.

Results

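Clean joins from the first target are deletions that start at target site 1 of the DARLIN array at the Col1a1 locus, run into a later target short of target 10, and leave both ends joined with no added base listed. They were picked by their listed positions: a deletion without inserted bases had to overlap the cut window of target 1 and that of at least 1 other target, but not that of target 10. Of the 12767 alleles listed for the library, 3080 held such a deletion (24.1%, 95% exact binomial interval 23.4 to 24.9%), 1 per allele. These alleles carried 8224 of the 32342 listed UMIs (25.4%). Since positions and the absence of inserted bases chose the members, their positions and numbers are given as a description, with no test.

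DARLIN is a mouse line for lineage tracing that carries arrays of Cas9 target sites. Cas9 cuts a target near its 3′ end, and the repair of the break leaves a change that daughter cells inherit. The Cas9 of this line carries terminal deoxynucleotidyl transferase (TdT), which extends free DNA ends with untemplated bases. When 2 targets are cut in the same array, the stretch between them can be lost and the outer ends joined. Such a join is called clean here if no added base is listed, and it removes every target in between.

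GEO's labels describe 40 samples of mouse liver from 5 animals, with 16 marked E15.5, 14 marked E10 and 10 marked E12. Values are given here for 1 library, made from the right inferior lobe of the YK184 liver with the mark E15.5. Whether a mark dates induction or collection is unclear from the labels, which give no genotype, age, sex or inducing agent. Total RNA was reverse transcribed with a primer that carries a unique molecular identifier (UMI), so UMIs count array transcripts and not cells. With 1 library there are no replicates and no groups, so no p-value is given. All intervals cover counting error alone and treat alleles or UMIs of this library as independent draws. Col1a1 itself, a collagen gene, spans chr11:94936224-94953042 in GRCm38.p6; where in or beside it the array sits was not stated, and no gene that could mark a liver cell type was measured.

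Positions count from base 1 of the array, with 10 targets in repeats of 27 bases. Cas9 is taken to cut target 1 after base 22 and each later target 27 bases further on, and the cut window covers 7 bases: the base left of the cut and 3 bases on either side of that base. Letters of these windows could be read from the 291 substitutions in the deposited list, each of which states the base it replaced. They are shown because the joins to different targets ended in different places. Capitals are letters that a listed substitution states, n is a base for which none was listed, and the cut lies after the fourth letter.
target 1: nCnACGn
target 2: nATACGn
target 3: nnnACnn
target 4: nCnnCTn
target 5: nnCGCTn
target 6: nCnACTn
target 7: nnnGCnn
target 8: nnCGCGn
target 9: GACGATn
target 10: CAGACnA
The letter right after the cut was C in 9 of 10 targets and A in target 9. The next letter was G in targets 1, 2 and 8 and T in targets 4, 5, 6 and 9, and it was not stated for targets 3, 7 and 10. No other sequence of the array is shown, since none was among the sources used here.

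Clean joins reached every target from 2 to 9. The last target overlapped was target 2 in 242 alleles (7.86% of the members, 6.93 to 8.86%) and target 3 in 437 alleles (14.2%). It was target 4 in 179 alleles (5.81%, 5.01 to 6.70%) and target 5 in 332 alleles (10.8%, 9.71 to 11.9%). Target 6 closed 427 joins (13.9%, 12.7 to 15.1%) and target 7 closed 432 (14.0%, 12.8 to 15.3%). Target 8 closed 515 (16.7%, 15.4 to 18.1%) and target 9 closed 516 (16.8%). From target 4 to target 9 each class was at least as large as the one before it, while targets 2 and 3 departed from that order. The interval of target 4 lay below those of all 7 other targets, while the intervals of targets 3, 6 and 7 overlapped each other, as did those of targets 8 and 9. With the whole target as window, target 2 closed 439 of 3221 joins (13.6%). Among members with 5 or more UMIs, target 3 closed 8.91%, target 4 closed 2.30%, target 5 closed 5.46% and target 9 closed 33.6% (n = 348 alleles).

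Counted by UMIs, the joins to target 9 stood apart from those to targets 2 to 8. They held 2713 UMIs (33.0% of the members' UMIs, 32.0 to 34.0%), against 1311 for target 8, 941 for target 7, 938 for target 6, 623 for target 5, 316 for target 4, 788 for target 3 and 594 for target 2. An allele with a join to target 9 had 5.26 UMIs on average and a median of 2. The other classes averaged 1.77 to 2.55 UMIs, each with a median of 1. Alleles with 1 UMI were 40.9% of the target 9 class (36.6 to 45.3%), against 55.5% to 66.1% of the others. High UMI numbers were not particular to these joins. Joins from target 1 to target 9 with inserted bases averaged 2.75 UMIs with a median of 2. Clean joins from target 2 to target 10 averaged 4.74 with a median of 2. Both means were the highest of their sets. Over all members the mean was 2.67 UMIs per allele (n = 3080), against 2.49 in all other alleles of the library (n = 9687), and both medians were 1.

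The joins to target 9 were also the simplest and shortest arrays. This follows largely from the grouping, since such a join removes at least 211 bases and leaves no target but target 10 to edit. Alleles of the target 9 class had a median of 2 events, and 487 of 516 consisted of the join and a single event at target 10. In each of the other classes the median was 3 events. The array left had a median of 56 bases in the target 9 class (quartiles 50 and 62) and of 84 to 99 bases in the others, with the length of the unedited array taken from general knowledge of it. UMIs were fewer in members with more events. Alleles with 2 events averaged 4.22 UMIs (n = 1036), those with 3 events 2.06 (n = 1140), those with 4 events 1.66 (n = 619) and those with 5 or more 1.43 (n = 251). The 34 members with the join as their single event averaged 3.59. Among alleles with 2 events alone, the mean was 5.38 UMIs in the target 9 class and 2.63 to 4.11 in the others. Length and number of events thus moved together with UMIs, and their part in the UMI numbers was not tested.

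The left ends of the joins clustered at the cut of target 1 in every class. Of the 3080 joins, 1978 began with base 23, right after the cut of target 1 (64.2%, 62.5 to 65.9%), and 250 began with base 24. Base 16 was the third most frequent start, with 154 alleles. Starts within 3 bases of the cut made up 81.9% (80.5 to 83.2%). The share with base 23 first was lowest for target 2, at 52.1% (45.6 to 58.5%), and highest for target 4, at 77.1% (70.2 to 83.0%).

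The right ends were more scattered and differed with the target joined. The rule bounds both ends: a start can lie no further right than base 25. A right end can lie from 3 bases before to 23 bases past the cut of the last target. Far ends thus belong to that target by the rule. An end exactly at the cut of the last target was found in 752 joins (24.4%, 22.9 to 26.0%), and ends within 3 bases of it in 75.5% (73.9 to 77.0%). Ends 1 base short of the cut were nearly as frequent, with 695 joins (22.6%, 21.1 to 24.1%). Ends 3 bases past it, at the last base of the target sequence, numbered 532 (17.3%, 16.0 to 18.7%), and ends 12 bases past it 212 (6.88%, 6.01 to 7.84%). The commonest end was the cut itself at targets 4, 5, 6 and 9. It was 1 base before the cut at targets 2 and 3, and 3 bases past it at targets 7 and 8.

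Deletions exactly from cut to cut showed the clearest split between targets. Over all members they were 361 of 3080 (11.7%, 10.6 to 12.9%). At target 4 they were 44 of 179 joins (24.6%, 18.5 to 31.6%), at target 5 they were 85 of 332 (25.6%, 21.0 to 30.7%), at target 6 they were 120 of 427 (28.1%, 23.9 to 32.6%), and at target 9 they were 78 of 516 (15.1%, 12.1 to 18.5%). In each of these 4 classes the exact deletion was the one found in the most alleles. Weighted by UMIs, the exact share at target 9 was 31.0% (841 of 2713 UMIs). At target 4 it was 8 of 66 alleles with 2 or more UMIs (12.1%) and 2 of 31 with 3 or more (6.45%), when target 3 had 4.17%.

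At the remaining targets the exact deletion was rare. It made up 5 of 242 joins to target 2 (2.07%, 0.674 to 4.76%) and 9 of 437 to target 3 (2.06%, 0.946 to 3.87%). It made up 8 of 432 joins to target 7 (1.85%, 0.803 to 3.62%) and 12 of 515 to target 8 (2.33%, 1.21 to 4.03%). Summed, a grouping made after the values were seen, targets 2, 3, 7 and 8 had 34 exact joins of 1626 (2.09%, 1.45 to 2.91%), and targets 4, 5, 6 and 9 had 327 of 1454 (22.5%, 20.4 to 24.7%). Among alleles with 5 or more UMIs the split could not be read at every target: target 4 then had 0 exact joins among 8 alleles, target 5 had 4 of 19, target 6 had 8 of 35 and target 9 had 25 of 117, while targets 2, 3, 7 and 8 had 0 of 27, 0 of 31, 0 of 40 and 1 of 71.

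Deletions were also counted by length alone. A deletion between 2 like stretches can be written at more than 1 position, and with C after the cuts of targets 1 to 8 a shift of 1 base to the right leaves the same array. Such shifted deletions, 1 base past both cuts, were listed in 0 alleles ending at targets 2 to 8 and in 3 ending at target 9, where the letter after the cut is A. Counting every deletion whose length was a multiple of 27, wherever it began, gave 2.28% (1.61 to 3.12%) at targets 2, 3, 7 and 8 and 23.5% (21.3 to 25.7%) at targets 4, 5, 6 and 9. Every exact deletion has such a length, and 361 of the 378 joins counted were exact, so the split is not shown independently. The count shows only that few joins of such a length were listed at other positions. Among the targets whose second letter after the cut is stated, those with G there, as in target 1, were the low targets 2 and 8. Those with T there were targets 4, 5, 6 and 9. For the low targets 3 and 7 that letter is not stated, and a link between letter and split was not tested.

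Joins to targets 2, 3, 7 and 8 most often lost 1 base less than the exact deletion or 3 bases more. The deletion found in the most alleles of each class was that of bases 23 to 48 for target 2 (68 alleles, 156 UMIs), 23 to 75 for target 3 (115 alleles, 192 UMIs), 23 to 183 for target 7 (108 alleles, 199 UMIs) and 23 to 210 for target 8 (129 alleles, 283 UMIs). All 4 stop 1 base short of the cut. The next in each class ran to the last base of the target: bases 23 to 52 (36 alleles, 85 UMIs), 23 to 79 (58 alleles, 120 UMIs), 23 to 187 (92 alleles) and 23 to 214 (107 alleles). By UMIs the last 2 led their classes, with 251 UMIs for bases 23 to 187 and 336 for bases 23 to 214. Deletions from base 23 to 1 base short of the cut were also frequent at the other targets. They made up 19.6% of joins to target 4, 24.1% to target 5, 15.9% to target 6 and 12.8% to target 9. The shares were 28.1% at target 2, 26.3% at target 3 and 25% at targets 7 and 8. A deletion that stops 1 base short reads the same as an exact join with 1 added base equal to the letter left of the cut. That letter was A at targets 2 and 3 and G at targets 7 and 8. The listed positions cannot tell these cases apart.

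Ends 3 bases past the cut followed a similar division. They closed 23.6% of joins to target 2 (18.4 to 29.4%), 16.5% to target 3 (13.1 to 20.3%), 31.5% to target 7 (27.1 to 36.1%) and 30.9% to target 8 (26.9 to 35.1%). They closed 7.26% of joins to target 4 (3.92 to 12.1%), 3.61% to target 5 (1.88 to 6.23%), 5.15% to target 6 (3.26 to 7.70%) and 11.8% to target 9 (9.16 to 14.9%). A start at base 16 went with this end in 117 of its 154 alleles, and 37 and 42 of these joins ended at targets 7 and 8. Joins to target 9 had this pair of ends in 6 alleles.

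Some ends lay well beyond the cut window of the last target, in the next repeat. Joins ending 12 bases past the cut removed bases 23 to 115 at target 4 (25 alleles, 53 UMIs), 23 to 142 at target 5 (29 alleles, 65 UMIs), 23 to 196 at target 7 (43 alleles, 80 UMIs), 23 to 223 at target 8 (39 alleles, 114 UMIs) and 23 to 250 at target 9 (52 alleles, 479 UMIs). At targets 2 and 3 no join ended there, and at target 6 there were 4. Each of those 3 targets had a frequent far end of its own. The deletion of bases 24 to 62, 13 bases past the cut of target 2, occurred in 13 alleles and 82 UMIs. That of bases 22 to 87, 11 bases past the cut of target 3, occurred in 15 alleles and 45 UMIs. At target 6 bases 22 to 168 were lost in 25 alleles and bases 25 to 172 in 20 alleles.

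The 3080 joins came down to 501 distinct deletions, and 261 of these were listed in 1 allele each. The shortest, of bases 23 to 47, removed 25 bases in 3 alleles with 3 UMIs. The longest, of bases 6 to 257, removed 252 bases in 1 allele with 1 UMI. At the edge of the rule, 73 clean deletions into targets 2 to 9 began at base 25, the last base of the first window, and 2 began at base 26, just outside it. Deletions from target 1 that ended at bases 46 to 48, the first bases of the second window, were in 79 alleles, and those ending at bases 43 to 45, outside it, in 21. Those ending at bases 259 to 261, just short of the last window, were in 9 alleles with 26 UMIs, and those ending at bases 262 to 264 were in 13 alleles with 1004 UMIs.

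Joins from target 1 with inserted bases gave another pattern of ends. Over targets 2 to 9, 47.6% of joins from target 1 were clean (3080 of 6468, 46.4 to 48.8%). A join whose added base equalled the deleted base beside it would be listed as clean, so these shares follow the listing. The clean share was 32.0% at target 2 (28.7 to 35.5%), below the intervals of all other classes, and highest at target 6, at 56.9% (53.3 to 60.5%); the intervals of targets 4, 7 and 9 reached that of target 6. It was 44.5% to 53.3% at targets 3, 4, 5, 7, 8 and 9. Weighted by UMIs, 55.6% were clean (54.8 to 56.4%), and 66.0% at target 9. At target 10, outside the rule, 47 of 284 joins were clean by alleles (16.5%, 12.4 to 21.4%) but 3501 of 5890 by UMIs (59.4%). Of these 3501 UMIs, 1589 belonged to 1 allele, and the median over the 47 alleles was 7.

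As listed, clean joins matched the cuts less often than joins with inserted bases. The exact pair of cuts bounded 11.7% of clean joins and 47.1% of joins with inserted bases (45.4 to 48.8%, n = 3388). Base 23 came first in 64.2% of clean joins and in 85.6% of those with inserted bases (84.4 to 86.8%). The difference was widest at the targets where the exact clean deletion was rare. At target 3 the exact pair bounded 2.06% of clean joins and 69.2% of joins with inserted bases (65.1 to 73.0%), and at target 8 it bounded 2.33% and 59.2% (55.1 to 63.3%). At target 6 the shares were 28.1% of clean joins and 45.8% of joins with inserted bases (40.3 to 51.4%). At targets 2, 3, 7 and 8 together, 53.6% of joins with inserted bases were exact (51.4 to 55.8%), and at targets 4, 5, 6 and 9 it was 37.7% (35.2 to 40.3%). Target 2 did not follow the pooled values, with 34.6% (30.5 to 38.9%, 178 of 514), below target 5 at 40.5% and target 6.

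The division of targets recurred at the other end of the array. Clean joins that start at one of targets 2 to 9 and end at target 10 were listed as 2833 deletions with 6560 UMIs. They were exact in 4.73% when they began at targets 2, 3, 7 or 8 (3.73 to 5.90%, n = 1564) and in 49.5% when they began at targets 4, 5, 6 or 9 (46.7 to 52.3%, n = 1269). Single targets ran from 1.80% at target 3 to 8.79% at target 8 in the first group and from 41.5% at target 4 to 59.4% at target 5 in the second. Clean joins from target 1 to target 10 were exact in 1 of 47 alleles (2.13%, 0.0539 to 11.3%). A member allele can also hold a join to target 10, so these sets share some alleles.

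Beyond the join, target 10 was altered in nearly all of these alleles. It carried an edit in 3008 of 3080 (97.7%, 97.1 to 98.2%), against 97.8% of all other alleles (97.5 to 98.1%). In 907 alleles (29.4%, 27.8 to 31.1%) it lay within another joining deletion. That share was 57.9% after a join to target 2 (51.4 to 64.1%), 48.3% after target 3, 52.0% after target 4, 42.5% after target 5, 39.8% after target 6, 26.4% after target 7 and 7.38% after target 8 (5.27 to 9.99%). After a join to target 9 it was 0 by construction, since no other target was left to join. Of all other alleles, 49.4% (48.4 to 50.4%) had target 10 within a joining deletion. Among these, alleles with an inserted-base join from target 1 to targets 2 to 9 had 34.9% (33.3 to 36.5%). By the rule a member's own join could not reach target 10, whereas all other alleles include joins from target 1 to target 10.

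Where target 10 was edited by itself, an insertion was the usual change. Of the 2173 members with target 10 outside any joining deletion, 1627 had an insertion (74.9%, 73.0 to 76.7%), 335 a deletion without inserted bases (15.4%, 13.9 to 17.0%), 116 a deletion with inserted bases, 23 a substitution and 72 no change (3.31%, 2.60 to 4.15%). In all other alleles with target 10 outside a join, 77.9% had an insertion (76.7 to 79.0%, n = 4903) and 11.2% a deletion (10.4 to 12.2%). In alleles with a join from target 1 that held inserted bases, the shares were 79.1% (77.3 to 80.8%) and 11.4% (10.1 to 12.8%, n = 2205). The interval for deletions beside clean joins lay above both others in the pooled alleles, which was not tested across libraries. Alleles with an inserted-base join from target 1 are themselves part of all other alleles, so these comparisons overlap. By class it did not hold throughout. The deletion share was 17.0% against 9.89% for joins with inserted bases at target 7 and 17.0% against 10.7% at target 8. It was 12.7% against 8.24% at target 2, 12.8% against 9.38% at target 4 and 13.6% against 8.99% at target 6, with overlapping intervals. At target 3 it was 32 of 226 against 32 of 247 alleles, and at target 9 it was 17.2% against 14.6%. Target 5 went the other way, with 10.5% against 11.6%. By class the insertion share ran from 71.7% at target 9 (67.6 to 75.6%) to 79.1% at targets 4 and 5, and the intervals of all 8 classes overlapped.

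The bases added at target 10 were few and mostly purines. The commonest edits were an inserted G (203 alleles, 635 UMIs), A (186 alleles, 572 UMIs), GG (180 alleles, 600 UMIs), AG (155 alleles, 442 UMIs) and GA (108 alleles, 305 UMIs), all after base 265, the cut. Each of these 5 edits was found with joins to all 8 last targets. Of the 1627 insertions, 34.6% had 1 base, 43.5% had 2 and 13.3% had 3, and 91.2% lay exactly at the cut. A and G made up 83.2% of their 3344 bases (81.9 to 84.5%), against 81.9% in all other alleles (81.0 to 82.7%). The members held 264 different edits at target 10 outside joins.

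The abundant joins to target 9 each occurred with many target 10 edits. Listed alleles are distinct by definition, so alleles that hold the same join and 1 event at target 10, as 74 of the 78 with bases 23 to 238 lost do, have to differ at that target. The deletion of bases 23 to 238, exactly between the cuts of targets 1 and 9, was in 78 alleles with 841 UMIs and 75 different states of target 10. Of these alleles, 52 had an insertion there, 13 a deletion, 9 a deletion with inserted bases, 3 a substitution and 1 no change. The deletion of bases 23 to 237 was in 66 alleles with 426 UMIs and 63 states, and that of bases 23 to 250 in 52 alleles with 479 UMIs and 51 states. Joins to nearer targets left more of the array to vary. Bases 23 to 210 were lost in 129 alleles with 49 states of target 10, and that of bases 23 to 48 in 68 alleles with 45 states, 31 of these alleles with target 10 in another joining deletion.

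Of the 10 member alleles with the most UMIs, 9 were joins to target 9 with 1 edit at target 10, and the 10 together held 8.86% of the members' UMIs (8.26 to 9.50%). The deletion of bases 23 to 238 led with GG inserted at target 10 (127 UMIs), and it also occurred with A (101 UMIs), G (95 UMIs), AG (74 UMIs) and GA (50 UMIs). With bases 23 to 250 lost, there were 68 UMIs with A inserted, 54 with bases 266 to 268 deleted and 47 with bases 262 to 267 deleted. With bases 23 to 237 lost, there were 58 UMIs with G inserted. The exception paired a deletion of bases 24 to 62 with a deletion of bases 77 to 263 and an inserted G, in 55 UMIs. Identical edits made in different cells are listed as 1 allele, so an allele's UMIs need not come from 1 clone.

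For joins to targets 2 to 8, the next target was altered in its cut window in most alleles. No event was listed there in 8.47% of alleles after a join to target 3 and in 10.6% after target 4. The share was 10.5% after target 5, 5.15% after target 6 and 10.2% after target 7. After a join to target 2, target 3 was lost in another joining deletion in 74.8% of alleles (68.8 to 80.1%) and had an insertion in 12.4%. It had no event in its cut window in 2.89% (1.17 to 5.87%). A join ending in the next repeat can remove bases of the next target outside that window, which was not counted as a change. After a join to target 8, target 9 was in another joining deletion in 7.38%, had an insertion in 49.7% (45.3 to 54.1%), a deletion in 17.5% and no change in 77 of 515 alleles. A further joining deletion was present in 242 of 242 alleles with a join to target 2 and in 435 of 437 with a join to target 3. It was present in 176 of 179 for target 4, 306 of 332 for target 5, 338 of 427 for target 6, 154 of 432 for target 7, 38 of 515 for target 8 and 0 of 516 for target 9. Over all members it was present in 1689 of 3080 (54.8%, 53.1 to 56.6%). Of all other alleles, 42.5% (41.5 to 43.5%) held 2 or more joining deletions. Every member holds 1 joining deletion by the rule, which other alleles need not. All 10 targets were altered in 87.8% of member alleles (86.6 to 89.0%) and in 89.3% of all other alleles (88.6 to 89.9%). No member had a second event in the window of target 1. At target 10 several local events were listed in 0 members and in 0 of all other alleles, so such an absence was not particular to members.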

How the data were processed

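RNA of 1 liver lobe library was analysed; the other samples of the series were not analysed here. The authors deposited 2 lists without header: the edits of each allele, as positions along the array, and its 12-base UMIs, in the same order. Other values, such as counts or reads, were not used here, so read depth is unknown and 32342 UMIs set the precision. Per the submitters' processing notes the genome build was mm10. How alleles were called and filtered was not given in the sources used here.

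Each allele's UMIs were counted. The array layout (10 targets, 27-base repeats, cuts after base 22 of the first repeat onwards) is general knowledge. An insertion counted at a target when either base beside it lay in the cut window. Offsets are the listed end minus the cut. Shares have exact binomial (Clopper-Pearson) 95% intervals. No test between groups was possible with 1 library. The members, lists and comparison sets were chosen with earlier results of these data known.

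Named were all 8 classes, in each class the deletion in the most alleles, the one with the most UMIs and the exact one, the 10 member alleles with the most UMIs, the 5 commonest edits at target 10, and the longest and shortest member. Other deletions and both groups of targets were named after their values were seen. Tested on simulated data, the join classes, offsets and target 10 edits of 2000 alleles were recovered in 100%, and the interval held the true share in 95.4% of 500 draws. Python 3.11.15, numpy 2.4.6, scipy 1.17.1 and pandas 2.3.3 were used.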

Additional observations from a re-analysis of the deposited data

How the results depend on the processing

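Over 10 alternative settings, 42 of 89 values of the 10 main results fell inside the reported value's interval (within 1.5 times for the number of joins) and 47 did not; for the 8 classes, 90 of 152 did and 62 did not. No paired analysis was possible because 1 library was analysed.

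At minimums of 2, 3 and 5 UMIs per allele, members were 1291, 726 and 348 alleles, 27.4%, 29.7% and 33.1% of alleles; 50.7%, 54.3% and 60.1% of joins from target 1 were clean, 22.5%, 20.7% and 20.4% ended at the cut, the median array left was 76, 63 and 62 bases, and joins to target 10 were exact in 21.0%, 18.3% and 18.8%. At 3 and 5 UMIs, target 10 was edited in 96.7% and 96.6% and held an insertion in 49.2% and 46.3%. Weighted by UMIs (8224), members were 25.4%, 55.6% of joins were clean, 16.1% exact (19.8% for joins to target 10), 68.8% began at the cut, and the median was 63 bases. With the whole target as window, members were 25.2%, 60.3% began at the cut, target 10 was edited in 98.5% with an insertion in 49.5%, and 22.8% of joins to target 10 were exact; with 2 bases on either side of the cut, target 10 was edited in 95.8% and 26.4% of joins to target 10 were exact. Without alleles holding 10 or more inserted bases in an event, members were 25.7% and 50.3% of joins were clean. Counting each of the 501 distinct deletions once gave 1.60% exact (2.35% to target 10), 22.8% beginning and 14.2% ending at a cut; this follows from its construction, with at most 1 exact deletion per class. Within 1 base of the cuts, 44.6% were exact (53.0% to target 10), 76.6% began and 51.9% ended there.

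Every exact share at targets 2, 3, 7 and 8 stayed below every one at targets 4, 5, 6 and 9 in 7 of the 10 settings. At 5 or more UMIs the lowest of the second group was 0%, at target 4, and the highest of the first 1.41%; counting distinct deletions put the lowest of the second group under the highest of the first, 1.96%, and allowing 1 base gave 39.0% and 44.2%. The cause of the other shifts was not tested.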
